A study of Mus musculus with 8 samples.

Results

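The comparison described here sets liver RNA of wild-type mice given N-ethyl-N-nitrosourea (ENU) against liver RNA of wild-type mice given only the vehicle. Its members are 4 of the 8 arrays of the series, 2 per group, and the 16182 genes with a probe well above background on both arrays of either group. The wild-type mice were littermates with both Dicer1 alleles flanked by loxP sites and without Cre, so Dicer1 was intact. All mice were C57BL/6, labelled female and 6 months old. ENU was injected once into the peritoneum at 120 mg/kg, and the vehicle was dimethylsulfoxide at 2 ml/kg. Livers of treated mice were taken on day 15, while the labels give no day for the vehicle mice and no hour of collection for either group. The other 4 arrays held liver of mice that carried the same loxP alleles and an albumin promoter-driven Cre, which deletes Dicer1 in hepatocytes. Those knockout mice received the same ENU or vehicle. The number of mice behind each RNA sample is not stated in the labels.

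ENU transfers an ethyl group to DNA bases, and the resulting lesions are repaired by direct reversal or base excision or are fixed as mutations when cells divide. The adult liver is mostly quiescent and divides after injury. Many of its metabolic genes follow the circadian clock, feeding and hormones, so that their level depends on when and in which state the tissue is taken. Interferons, which are signals of infection and of nucleic acid sensing, induce a further set of genes in hepatocytes and in the resident immune cells.

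Some groups of genes are known by elements in their promoters, and 6 promoters are printed so that these elements can be seen. Shown are the 180 bases before the transcription start and the 20 from it, from the RefSeq annotation of GRCm38.p6. Capitals mark the E-box CACGTG, to which the clock activators bind, in Ciart and Per1. They mark the interferon-stimulated response element, GAAA and again GAAA after 2 bases, in Isg15 and Tgtp1, and the cell cycle homology region TTTGAA in Cdk1 and Cdc20. Both strands were searched, and overlapping matches run together, as in Isg15.
Ciart, chr3:95882209-95882408, minus strand: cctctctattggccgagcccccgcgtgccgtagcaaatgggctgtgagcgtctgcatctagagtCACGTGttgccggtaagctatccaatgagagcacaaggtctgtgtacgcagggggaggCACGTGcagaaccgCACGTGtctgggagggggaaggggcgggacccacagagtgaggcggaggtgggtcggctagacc
Per1, chr11:69098769-69098968, plus strand: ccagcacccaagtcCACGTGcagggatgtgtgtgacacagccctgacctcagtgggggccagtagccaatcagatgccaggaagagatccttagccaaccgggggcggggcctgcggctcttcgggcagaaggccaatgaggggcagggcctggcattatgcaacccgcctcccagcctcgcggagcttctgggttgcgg
Isg15, chr4:156200799-156200998, minus strand: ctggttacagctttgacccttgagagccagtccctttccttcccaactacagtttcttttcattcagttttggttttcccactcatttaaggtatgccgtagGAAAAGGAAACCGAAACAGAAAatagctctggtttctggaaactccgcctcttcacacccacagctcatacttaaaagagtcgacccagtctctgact
Tgtp1, chr11:48992227-48992426, minus strand: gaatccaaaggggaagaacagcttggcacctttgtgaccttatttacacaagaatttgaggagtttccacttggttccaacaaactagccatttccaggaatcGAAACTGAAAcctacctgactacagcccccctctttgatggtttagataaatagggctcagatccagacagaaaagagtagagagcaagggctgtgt
Cdk1, chr10:69352893-69353092, minus strand: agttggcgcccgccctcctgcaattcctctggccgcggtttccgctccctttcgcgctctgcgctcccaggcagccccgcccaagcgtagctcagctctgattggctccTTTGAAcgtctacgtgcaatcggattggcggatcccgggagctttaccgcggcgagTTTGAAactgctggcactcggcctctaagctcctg
Cdc20, chr4:118437324-118437523, minus strand: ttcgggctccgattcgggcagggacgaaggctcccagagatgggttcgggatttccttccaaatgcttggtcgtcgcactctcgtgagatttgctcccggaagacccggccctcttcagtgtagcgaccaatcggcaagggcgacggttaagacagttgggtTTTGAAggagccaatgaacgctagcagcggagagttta

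The first promoter listed was used for each gene, over its full 300 bases, and 10596 of the 16182 genes had one. The E-box was in 9.8% of these promoters and in 3 of the 10 of core clock genes. The interferon element was in 3.1% of all promoters and in 22 of the 36 of interferon-induced genes. The cell cycle element was in 12.4% of all and in 17 of the 24 of mitotic genes. Other lists differed: clock output genes had the E-box in 2 of 17 promoters (11.8%). A heat shock element was in 3 of the 24 of heat shock genes, against 0.4% of all. A sterol element was in 1 of the 19 of cholesterol synthesis genes, against 1.1% of all. A direct repeat of AGGTCA was in 0 of the 32 of fat oxidation genes. Those lists were built from what is known of the genes, so the shares describe the lists and not the response.

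Levels are log2 of the processed signal minus the array's 75th percentile, and a difference is the mean of the ENU arrays minus the mean of the vehicle arrays. The 75th percentile signal was 437 and 443 on the vehicle arrays and 504 and 524 on the ENU arrays, and no spot was saturated. Arrays a and b of a group differed by no more than the noise between spots of one probe. This was seen over the 156 (vehicle) and 166 (ENU) probes spotted 5 or more times and well above background on both arrays. Their median standardised difference was 0.671 for vehicle and 0.679 for ENU, where chance spot noise gives 0.688, against 11.9 to 13.5 between the groups. They were therefore counted as 1 RNA sample, which sets 1 sample against 1 with no replicate check and gives no p-value for this comparison. All ENU arrays of the series lay on 1 slide and all vehicle arrays on another, so ENU and slide cannot be told apart. Of the 4 Y-linked genes Ddx3y, Eif2s3y, Kdm5d and Zfy1, each had a probe well above background on all 8 arrays, although the mice are labelled female. Of the 4 probes of Xist, the RNA of the inactive X chromosome, 3 were not well above background on any array and 1 was on 3 arrays. The tissue was checked against its markers, and all 22 hepatocyte marker genes were well above background on every wild-type array.

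At 2-fold or more, 1133 genes were higher after ENU, 7.00% of those tested, and 853 were lower, 5.27%. Every list count below is to be read beside these shares. Between repeat arrays of 1 group, 192 (vehicle) and 164 (ENU) of the 16182 genes differed by 2-fold or more. The array values of the groups did not overlap for 14147 genes, 87.4%, which shows how closely the repeat arrays agreed and is no count of responses. At 4-fold or more 190 genes were higher and 144 lower, and at 16-fold 5 were higher and 18 lower, so decreases outnumbered increases among the largest differences. For 273 of the higher genes the vehicle group was not well above background, and for 54 of the lower genes the ENU group was not. For these the fold is given as a bound, written as "at least", which is the brighter mean over a detection level of the dim arrays. That level is the lowest signal of any probe well above background on the array, or the gene's own signal where higher. It is a lenient level, and the normexp fold of a gene can be smaller than its bound. The bound itself reached 2-fold for 86 and 50 of them. Correcting the background another way, with the normexp model (offset 50) on the mean spot signal, left 422 higher and 487 lower genes. In bulk tissue fewer cells of a type and less RNA per cell cannot be told apart, and this holds for every group of genes that follows. Where the normexp correction takes a named gene under 2-fold or moves its fold by over 1.5 times, the corrected value is printed as the normexp fold or difference.

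**Figure D1:**
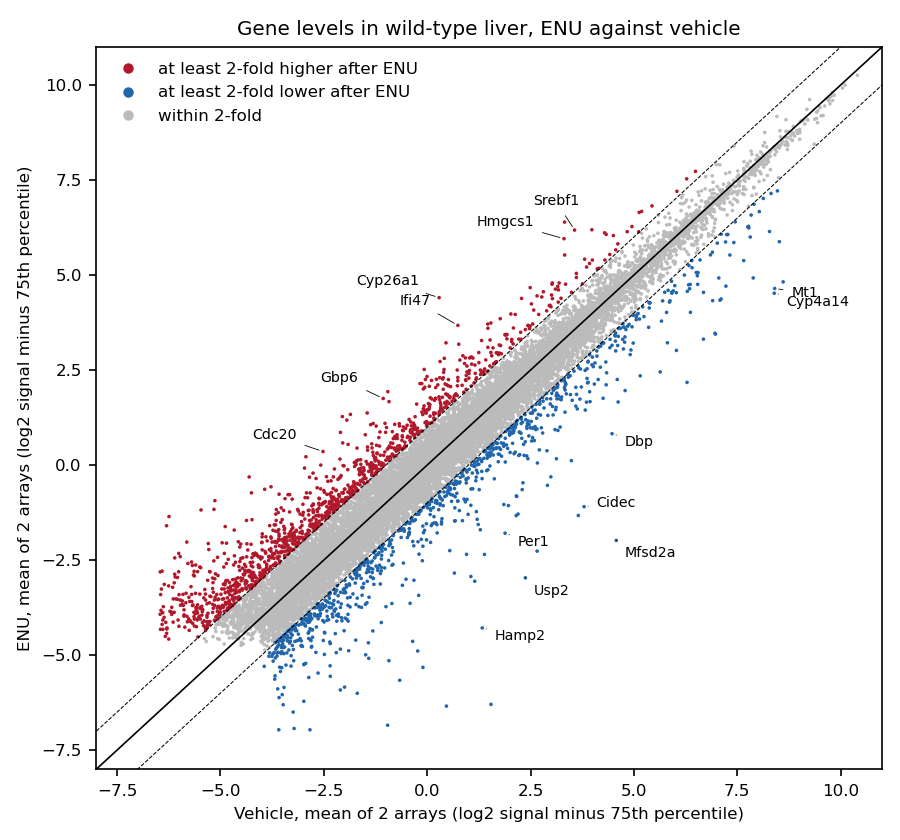
Mean level of each of 16182 genes in vehicle (x) and ENU (y) wild-type liver, in log2 signal minus the array's 75th percentile. The solid line is equality and the dashed lines are 2-fold, with 1133 genes (red) above and 853 genes (blue) below. Mfsd2a, Hamp2 and Usp2 lie farthest below among labelled genes and Cyp26a1 farthest above.

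Among genes detected on all 4 arrays, the lowest against vehicle was Mfsd2a, a transporter of lysophosphatidylcholine whose liver level rises in fasting. It read 4.57 and 4.58 on the vehicle arrays and -2.02 and -1.95 on the ENU arrays, a 94.1-fold difference (normexp fold 61.5), and its probe lies at chr4:122391585-122391644 in mm7. Usp2, a clock-controlled deubiquitinase, read 2.39 and 2.36 on vehicle and -2.93 and -3.01 after ENU, 40.6-fold lower (normexp fold 18.9). The lipid droplet coat genes Plin4 and Cidec were 31.6-fold and 29.7-fold lower. Ppp1r3g, which targets protein phosphatase 1 to glycogen, was 30.4-fold lower (normexp fold 17.9), and Cfd, the complement protease adipsin, was 18.5-fold lower (normexp fold 9.26). Hamp2, the second hepcidin gene, read 1.37 and 1.30 on vehicle and -4.34 and -4.24 after ENU, 49.1-fold lower, with a normexp fold of 12.8. None of these 7 genes overlapped between the groups on any array, which also held for 87.4% of all genes tested.

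Among genes lost below detection after ENU, the acyl-CoA thioesterase gene Acot3 was at least 37.4-fold lower, and by normexp the log2 difference was -3.42. The calcium/calmodulin kinase subunit gene Camk2b was at least 24.5-fold lower (normexp fold 6.50) and Fam107a at least 17.1-fold (normexp fold 4.89). Bounds hold for the processed signal and this scaling only.

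Among genes detected on all 4 arrays, the highest against vehicle was Cyp26a1, the hydroxylase that inactivates retinoic acid. It read 0.30 and 0.28 on vehicle and 4.43 and 4.38 after ENU, a 17.3-fold difference, and its probe lies at chr19:37401759-37401818 in mm7. Aqp8, the water channel of the bile canaliculus, was 8.40-fold higher, with 3.35 and 3.29 on vehicle and 6.39 on both ENU arrays. Xlr3c and Xlr4b, neighbouring members of an X-linked lymphocyte-regulated family, were 10.03-fold and 7.38-fold higher (normexp folds 5.69 and 5.61). Tmem218 was 9.12-fold higher (normexp fold 6.29), Wdr86 8.72-fold (normexp fold 5.86) and the calcium sensor gene Ncald 7.77-fold (normexp fold 4.83). Among genes not detected on vehicle, Nfe2, a transcription factor of megakaryocytes and red cell precursors, was at least 13.5-fold higher (normexp fold 4.12).

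**Figure D2:**
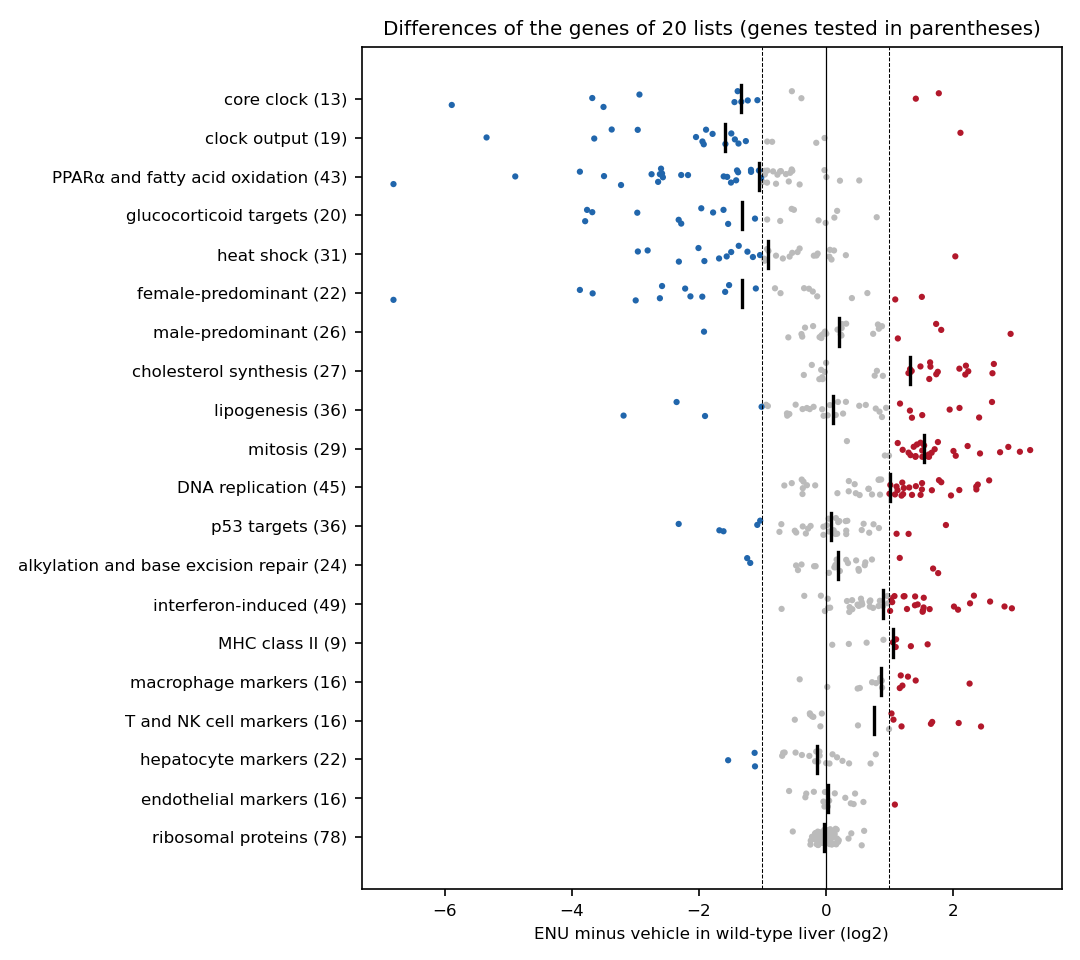
ENU minus vehicle in wild-type liver (x, log2) for each tested gene (point) of 20 gene lists, with the number tested in parentheses and the list median as a black bar. Red and blue points are at least 2-fold higher and lower, beyond the dashed lines. Clock, fat oxidation, glucocorticoid and heat shock lists lie to the left, and sterol synthesis, mitosis, DNA replication and interferon lists to the right, while the 78 ribosomal protein genes centre on -0.03.

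The circadian clock genes differed widely between the samples. The clock is a loop in which Clock and Arntl (Bmal1) activate the Per and Cry repressors and the Rev-erb genes Nr1d1 and Nr1d2, which in turn repress Arntl. Of 13 core clock genes tested, 9 were at least 2-fold lower after ENU and 2 were higher (7 and 2 with normexp), with a median difference of -1.33 against -0.03 over all genes. Per1 read 1.87 and 1.90 on vehicle and -1.82 and -1.77 after ENU, a 12.8-fold decrease. Per2 was 11.3-fold lower, or 4.43-fold with its 2 probes averaged (normexp fold 6.37). Ciart, a repressor of Clock and Arntl, was at least 13.95-fold lower (normexp fold 5.62). Per3 was at least 5.32-fold lower (normexp fold 2.23). Arntl moved the other way, from 0.47 and 0.43 to 1.85 and 1.89, a 2.68-fold difference. Nr1d1 also was higher, 3.44-fold, but 1.90-fold with its 3 probes averaged and 2.42-fold with normexp. Nr1d2 was 2.34-fold lower, so the Rev-erb pair did not move together. Clock itself read 0.49 and 0.45 on vehicle and -0.07 and -0.05 after ENU, within 2-fold.

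Genes driven by the clock were lower as well: of 19 output genes, 14 were at least 2-fold lower and 1 was higher, with a median of -1.58. Dbp, a transcription factor with D-box targets, read 4.48 and 4.46 on vehicle and 0.82 and 0.83 after ENU, a 12.5-fold decrease. Its relatives Tef and Hlf were 4.12-fold and 2.70-fold lower. Noct (nocturnin) was 10.4-fold lower. Por, the reductase that feeds electrons to microsomal P450s, was 7.79-fold lower, and Nampt, which makes the NAD precursor nicotinamide mononucleotide, was 3.84-fold lower. Avpr1a, a vasopressin receptor, was the 1 higher gene, 4.35-fold. In knockout liver the same subtraction gave other clock values: 0.18 for Dbp, -0.61 for Per1 and 3.33 for Nr1d1, against -3.65, -3.68 and 1.78 in wild type.

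**Figure D3:**
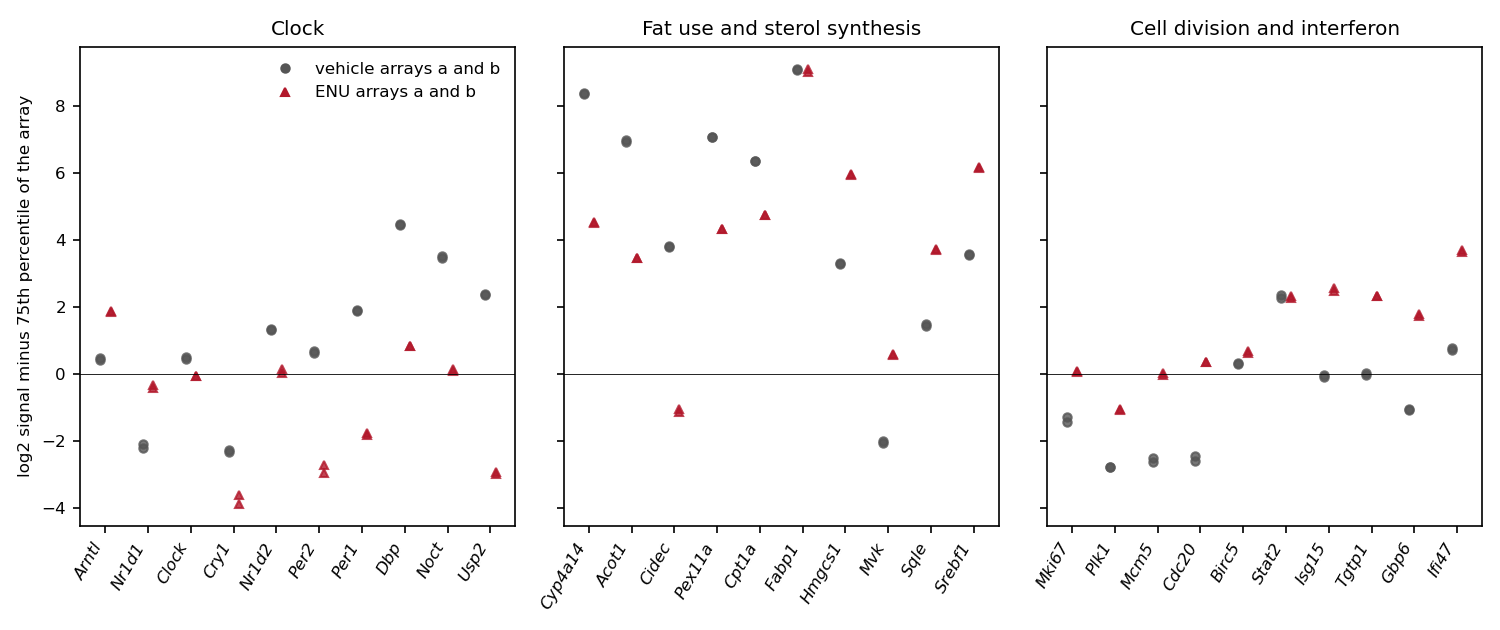
Level (y, log2 signal minus the array's 75th percentile) of 30 genes on each vehicle array (grey circles) and ENU array (red triangles) of wild-type liver. Repeat arrays lie close together, and Per1, Per2, Dbp, Noct and Usp2 are low after ENU where Arntl and Nr1d1 are high. Cyp4a14, Acot1, Cidec and Pex11a are low after ENU, and the sterol, cell division and interferon genes shown are mostly high.

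Fat oxidation genes were lower after ENU. PPARα, encoded by Ppara, is the fatty acid-sensing receptor that switches the liver to fat oxidation in fasting. Of 43 genes of this list tested, 23 were at least 2-fold lower and 0 higher, and 40 lay below 0, with a median of -1.05. Cyp4a14, a fatty acid omega-hydroxylase, read 8.41 and 8.38 on vehicle and 4.52 and 4.53 after ENU, 14.7-fold lower. Cyp4a31 and Cyp4a10, close relatives whose probes may share signal, were 6.23-fold and 5.97-fold lower. Acot1, a cytosolic thioesterase, was 11.3-fold lower and Pex11a, a peroxisome division factor, 6.70-fold. Of 12 acyl-CoA thioesterase genes in all, 6 were lower and 1 higher (5 and 0 with normexp). Angptl4, an inhibitor of lipoprotein lipase, was 4.84-fold lower. Cpt1a, which admits fatty acids to mitochondria, was 3.05-fold lower, and Ppara 2.81-fold. The ENU arrays of Fgf21 disagreed, at -2.27 and -4.60, against -0.24 and -0.17 on vehicle. This fasting hormone was 4.17-fold lower by 1 ENU array and 21.0-fold lower by the other, and the normexp fold of their mean was 4.01. Some members hardly moved, such as Fabp1, the liver fatty acid-binding protein, with 9.07 and 9.12 on vehicle and 9.03 and 9.12 after ENU.

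Sterol synthesis genes were higher. SREBP-2 drives the pathway from acetyl-CoA to cholesterol, and SREBP-1, encoded by Srebf1, drives fatty acid synthesis. Of 27 sterol genes, 16 were at least 2-fold higher and 0 lower, with a median of 1.33. Hmgcs1, which makes HMG-CoA, read 3.33 and 3.29 on vehicle and 5.95 and 5.97 after ENU, 6.27-fold higher. Mvk, the mevalonate kinase, was 6.17-fold higher (normexp fold 4.17), Sqle, the squalene epoxidase, 4.74-fold and Mvd 4.30-fold. Srebf2, which encodes SREBP-2 itself, was 1.04-fold lower.

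Lipogenesis genes went both ways, 8 of 36 higher and 4 lower. Srebf1 read 3.57 and 3.56 on vehicle and 6.17 and 6.20 after ENU, 6.14-fold higher. Acly, the citrate lyase, was 4.31-fold higher and the fatty acid synthase gene Fasn 2.87-fold. The lipins Lpin1 and Lpin2, which make diacylglycerol, were 9.09-fold and 5.10-fold lower, and Pnpla2, the main triglyceride lipase, 3.73-fold lower. In knockout liver the sterol list had a median of -0.06, with 1 gene higher and 2 lower, and Hmgcs1 differed by -0.20 against 2.65 in wild type.

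Many genes induced by glucocorticoids were lower. Of 20 glucocorticoid targets, 11 were at least 2-fold lower and 0 higher, with a median of -1.33. Per1 of the clock list and Angptl4 of the fat oxidation list are among them. Of the 20 targets 3 lay above 0, with Sgk1 the highest at 0.80. The metallothionein genes Mt1 and Mt2, which bind zinc and copper, were among the most changed. Mt2 read 8.60 and 8.62 on vehicle and 4.87 and 4.77 after ENU, 13.8-fold lower. Mt1 was 13.5-fold lower, or 6.29-fold with its 2 probes averaged. Fkbp5, a cochaperone of the glucocorticoid receptor, was 7.83-fold lower and Cebpb, a transcription factor of hormone and acute responses, 3.42-fold. The receptor gene Nr3c1 differed by 0.14.

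Heat shock genes formed a further lower group, 12 of 31 at least 2-fold lower and 1 higher, with a median of -0.90. Hspb1, a small chaperone, read 4.61 and 4.62 on vehicle and 1.63 and 1.69 after ENU, 7.78-fold lower. Hsph1 was 6.99-fold lower, Hspa1a, the inducible HSP70, 4.97-fold and its cochaperone gene Dnajb1 4.01-fold. The 1 higher gene was Cirbp, a cold-inducible RNA-binding protein, with 0.37 and 0.42 on vehicle and 2.39 and 2.49 after ENU, 4.12-fold higher. Of 27 genes of the integrated and endoplasmic reticulum stress responses, 2 were higher and 6 lower (1 and 4 with normexp), with a median of -0.10. Herpud1 was 6.68-fold and Creld2 4.41-fold lower, and the asparagine synthetase gene Asns 4.10-fold higher, while Hspa5, the chaperone BiP, was within 2-fold at -0.96. Hsf1, the heat shock factor, differed by 0.09.

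Cell division genes were higher after ENU in the processed signal. Of 29 mitotic genes tested, 26 were at least 2-fold higher and 0 lower, and all 29 lay above 0, with a median of 1.55, or 1.44 with 7 dim genes at their bounds. A further 9 listed mitotic genes on the array, such as Bub1 and Aurkb, were not tested because neither group was detected. Most of these genes were dim, and with normexp 3 of the 29 reached 2-fold and the median was 0.65.

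Cdc20, the activator of the anaphase-promoting complex, read -2.60 and -2.45 on vehicle and 0.37 and 0.34 after ENU, 7.34-fold higher with a normexp fold of 4.10. Prc1, which bundles spindle microtubules, was 3.40-fold higher (normexp 2.20-fold). Mki67, the proliferation antigen Ki-67, was 2.66-fold higher and 2.20-fold with normexp, the third of the genes that kept 2-fold. Plk1, the polo-like kinase, was 3.29-fold higher with a normexp fold of 1.81. Cdk1, the mitotic kinase whose promoter is printed above, was at least 2.54-fold higher with a normexp fold of 1.54. Birc5 (survivin) read 0.30 and 0.33 on vehicle and 0.61 and 0.69 after ENU, within 2-fold.

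Of 45 DNA replication genes, 24 were at least 2-fold higher and 0 lower, with a median of 1.02, and with normexp 10 reached 2-fold. The helicase gene Mcm6 read 0.38 and 0.44 on vehicle and 2.80 and 2.82 after ENU, 5.26-fold higher. Mcm5 was 5.96-fold higher (normexp fold 3.51) and Mcm3 3.53-fold. The S-phase genes Pcna, Tyms and Rrm1 were 1.39-fold, 1.45-fold and 1.83-fold higher, and Rrm2, the regulated subunit of ribonucleotide reductase, was 1.28-fold lower.

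**Figure D4:**
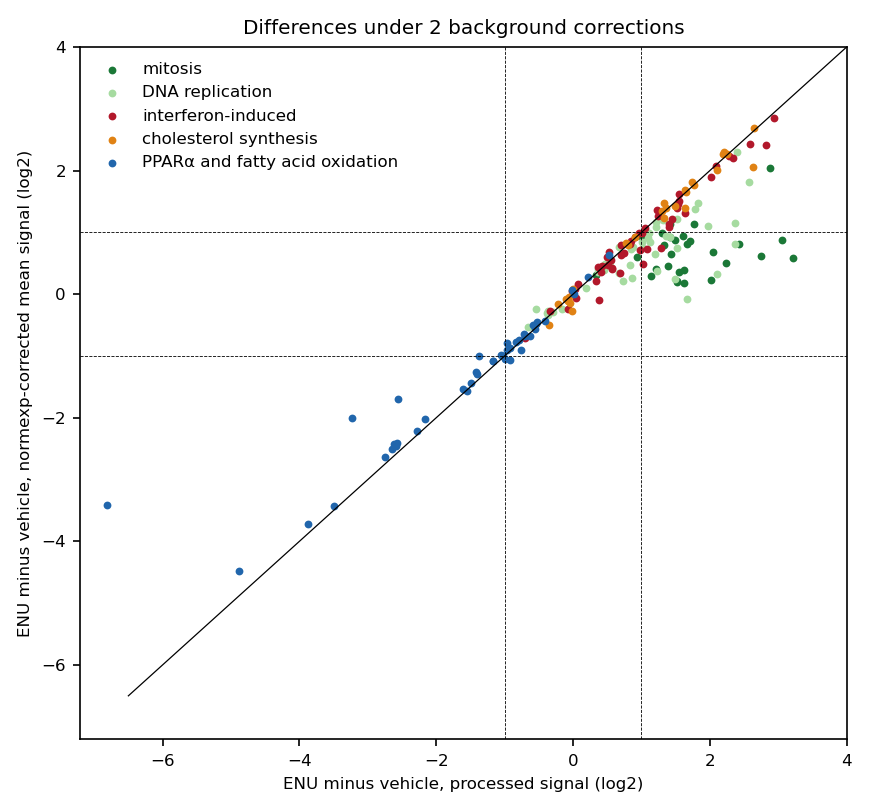
ENU minus vehicle (log2) in wild-type liver for the genes of 5 lists, from the processed signal (x) and from the normexp-corrected mean signal (y). The solid line is equality and dashed lines are 2-fold. Sterol and fat oxidation genes mostly lie near the line, while mitotic genes lie below it, 26 of 29 at 2-fold or more on x and 3 on y.

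Genes of the p53 response did not move as a group. p53, the transcription factor stabilised by DNA damage, induces cell cycle arrest, repair and death genes. Of 36 p53 targets, 3 were at least 2-fold higher and 5 lower, with a median of 0.09, and with normexp 1 was higher and 4 lower. Phlda3, an inhibitor of Akt, read -1.17 on both vehicle arrays and 0.73 and 0.72 after ENU, 3.72-fold higher. Cdkn1a (p21), the main arrest target, read 3.09 and 3.07 on vehicle and 2.01 and 2.00 after ENU, 2.11-fold lower. Mdm2, the p53 ubiquitin ligase, was 1.13-fold higher and the proapoptotic Bax 1.25-fold. Gadd45a was 2.47-fold higher (normexp fold 1.69) and Gadd45b 4.98-fold lower.

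Of 24 genes for repair of alkylated bases and base excision, 3 were higher and 2 lower, with a median of 0.20, and with normexp 0 were higher and 1 lower. Mgmt, which removes alkyl groups from guanine, read -2.37 and -2.40 on vehicle and -2.08 and -1.99 after ENU, 1.28-fold higher. Mpg, the alkyladenine glycosylase, was 1.53-fold higher. Fen1, a flap endonuclease that also serves replication, was 3.23-fold higher with a normexp fold of 1.88. Of 49 other repair genes 8 were higher and 1 lower, but with normexp 0 were higher and 1 lower. Their median was 0.44, or 0.21 with normexp, and 35 lay above 0 and 14 below.

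Interferon-induced genes were higher. Of 49 tested, 22 were at least 2-fold higher and 0 lower, with a median of 0.90, and with normexp 18 were higher. Ifi47, an interferon-inducible GTPase, read 0.72 and 0.76 on vehicle and 3.70 and 3.65 after ENU, 7.63-fold higher, and its probe lies at chr11:49053428-49053487 in mm7. Gbp6 was 7.04-fold and Isg15, a ubiquitin-like modifier, 6.02-fold higher. Tgtp1, a GTPase named for T cells, was 5.04-fold higher, or 2.39-fold with its 2 probes averaged. Among 15 GTPases of the Gbp and Irg families, 10 were at least 2-fold higher and the other 5 lay above 0. The chemokine genes Cxcl9 and Cxcl10, which attract T cells, were 4.06-fold and 3.11-fold higher, and Psmb9, an immunoproteasome subunit, 4.24-fold. The transcription factor gene Stat2 was 1.01-fold lower, and Oas2 was 1.62-fold lower, so the list did not move evenly. Of 32 genes of chemokines and their receptors, 13 were higher and 0 lower, and 6 higher with normexp. The receptor genes Ackr3, Ccr2, Ccr3 and Cx3cr1 are among the 13, and Ccr2 and Cx3cr1 are counted again as macrophage markers below. Ccl2, a monocyte attractant, read -2.47 and -2.40 on vehicle and -0.31 and -0.30 after ENU, 4.38-fold higher (normexp fold 2.77).

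Markers of some immune cells moved with these genes and those of others did not. Of 16 macrophage markers, 6 were at least 2-fold higher and 0 lower, with a median of 0.87, and their summed scaled signal was 94.6 and 95.1 on the vehicle arrays and 155 and 158 on the ENU arrays. Marco, a scavenger receptor, was 2.67-fold and Cd68 2.27-fold higher, while Clec4f, a Kupffer cell lectin, read 4.40 and 4.37 on vehicle and 4.47 and 4.35 after ENU. Of 16 T and NK cell markers, 7 were higher and 0 lower, while 7 lay below 0, and their summed signal was 4.80 and 4.83 on vehicle and 7.48 and 7.59 after ENU. Gzmb, a cytotoxic protease, was 4.27-fold higher (normexp fold 2.14), and Cd8a at least 2.54-fold (normexp fold 1.48), while the T cell receptor component Cd3e was 1.19-fold lower. The T and NK cell median was 0.75, but 0.27 with undetected genes at their bounds and 0.01 with normexp. With normexp 3 macrophage and 2 T and NK cell markers were 2-fold higher. Of 12 B and plasma cell markers 3 were higher and 1 lower, with a summed signal of 13.9 and 14.3 on vehicle and 14.5 and 14.3 after ENU. None of the 10 neutrophil markers tested reached 2-fold, and their summed signal was 6.84 and 6.93 on vehicle and 9.57 and 9.72 after ENU. Of 9 MHC class II genes, which present antigen, 5 were higher (2 with normexp), and H2-Aa read 0.38 and 0.40 on vehicle and 1.98 and 2.01 after ENU, 3.04-fold higher. The part of these cells in the interferon and chemokine values was not tested.

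Among the other cell types, of 22 hepatocyte markers, 0 were higher and 3 lower, and their summed signal was 6509 and 6571 on vehicle and 6058 and 6276 after ENU. Albumin differed by 0.01. Of 16 endothelial markers 1 was higher (6.2%, against 7.00% of all genes), and of 16 stellate cell markers 2 were higher and 0 lower. The summed signal of the stellate cell markers was 175 and 176 on vehicle and 170 and 171 after ENU, with 11 above 0 and 5 below. Of 10 cholangiocyte markers 2 were higher and 1 lower (1 and 1 with normexp). Of 8 erythroid markers 2 were lower (1 with normexp), and their summed signal was 187 on both vehicle arrays and 121 and 122 after ENU, although their median was 0.04. Of 6 platelet markers 2 were lower (0 with normexp), with a median of -0.70. Acta2, smooth muscle actin, was 3.27-fold higher, or 2.09-fold with its 3 probes averaged, and Krt8 and Krt18, the hepatocyte keratins, were 2.61-fold and 2.24-fold higher. Of 41 matrix genes 11 were higher and 1 lower, with 3 higher after normexp. Sparc, a collagen-binding matrix protein, read 3.03 and 2.99 on vehicle and 4.53 and 4.42 after ENU, 2.76-fold higher. Ccn2, a fibrosis-associated growth factor, was 3.71-fold lower.

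Female-predominant liver genes were mostly lower after ENU, while male-predominant ones went both ways. Growth hormone pulses set male and female programs in mouse liver. Of 22 female-predominant genes, 12 were at least 2-fold lower and 2 higher (11 and 1 with normexp), with a median of -1.31. Of these genes 4 also belong to the fat oxidation list (Acot3, Acot4, Cyp4a10 and Cyp4a14). Fmo2, a flavin monooxygenase, was 7.96-fold lower. Cyp2a4, a steroid hydroxylase nearly identical to Cyp2a5, was 4.38-fold lower. Of 26 male-predominant genes 4 were higher and 1 lower (2 and 0 with normexp), with a median of 0.21, and 15 lay above 0 and 11 below. Hsd3b5, a male-specific steroid reductase, read 4.28 and 4.31 on vehicle and 6.09 and 6.13 after ENU, 3.53-fold higher. All 6 higher genes among 16 hydroxysteroid dehydrogenases were of the Hsd3b family, from 2.39-fold for Hsd3b7 to 4.34-fold for Hsd3b6. The 4 major urinary protein genes, a male-biased family, lay between -0.13 and -0.07.

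Xenobiotic and iron genes were lower more often than all genes, and bile acid genes went both ways. Of 34 genes of the xenobiotic receptors and their targets, 1 was higher and 9 lower. They included Alas1, the first enzyme of heme synthesis, with 7.23 and 7.22 on vehicle and 4.63 and 4.79 after ENU, 5.72-fold lower. Of 31 bile acid genes 3 were higher and 3 lower (2 and 3 with normexp). Cyp7a1, the rate-limiting enzyme of bile acid synthesis, was 4.76-fold lower, and its repressor Nr0b2 (SHP) was 2.93-fold higher. Of 34 heme and iron genes 0 were higher and 5 lower (14.7%), although their median was 0.005. Hamp, the iron hormone hepcidin, was 3.51-fold lower. Of 68 cytochrome P450 genes 4 were higher (5.9%) and 11 lower (16.2%). Of 246 solute carrier genes 17 were higher (6.9%) and 31 lower (12.6%). Over all genes 7.00% were higher and 5.27% lower, so neither family stood out among the higher genes. Among solute carriers detected in both groups, the monocarboxylate carrier gene Slc16a5 fell most, 9.34-fold (normexp fold 4.11). The carnitine transporter gene Slc22a5 was 7.70-fold lower. Slc41a2, a magnesium transporter, was 6.78-fold higher. In contrast 0 of 78 ribosomal protein genes reached 2-fold, with a range from -0.52 to 0.61, and of 75 respiratory chain genes 1 did. It was Cox8c, not detected on vehicle, whose ENU arrays disagreed at -1.92 and -3.71. It was at least 2.53-fold higher with a normexp fold of 1.71, so that with normexp 0 of 75 reached 2-fold. Of 28 acute phase genes 6 were lower, Saa1 among them at 2.81-fold, and 0 higher (5 and 1 with normexp). Their median was -0.06, against -0.03 over all genes.

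The knockout mice give a second pair, an ENU sample and a vehicle sample of their own, hybridised on the same 2 slides. There 512 of the same 16182 genes were higher, 3.16%, and 756 lower, 4.67%. These genes and their probes were chosen by detection and brightness on the wild-type arrays alone. The counts of the 2 pairs are therefore not like for like. Of the 1133 genes higher in wild type, 955 (84.3%) had the same sign in knockout and 271 (23.9%) also reached 2-fold. Of the 853 lower, 773 (90.6%) had the same sign and 299 (35.1%) also reached 2-fold. Over all genes the differences of the pairs correlated with a Pearson r of 0.56 and a Spearman rho of 0.58, a description across genes that share slides and normalization. The mitotic median was 1.55 in wild type and 0.97 in knockout, the fat oxidation median -1.05 and -0.84, and the interferon median 0.90 and 0.56. The sterol median was 1.33 and -0.06 and the core clock median -1.33 and -0.44. The log2 difference of Cidec was -4.89 in wild type and -4.61 in knockout, that of Mt1 -3.76 and -3.86, and that of Mt2 -3.79 and -3.92. With 1 RNA sample per group, a difference between the genotypes in the response to ENU was not tested.

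A limma model of all 4 RNA samples, with a term each for Dicer1 deletion and ENU, has 1 residual degree of freedom and tests the average response over both genotypes. It called 0 of 16182 genes at an adjusted p under 0.05, 3903 had an unadjusted p under 0.05, and with normexp it called 3. The smallest Benjamini-Hochberg adjusted p was 0.0838, reached among others by Cidec, Mt1 and Mt2.

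**Figure D5:**
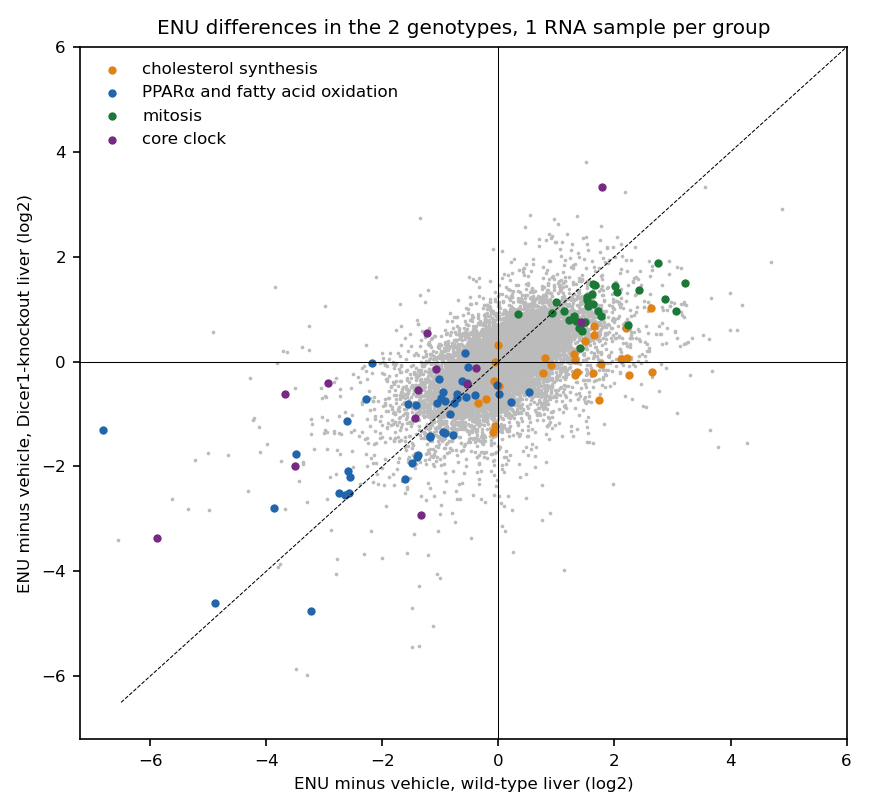
ENU minus vehicle (log2) in wild-type (x) and Dicer1-knockout (y) liver for 16182 genes (grey), with 4 gene lists in colour and equality as a dashed line. Each axis rests on 1 RNA sample per group. Mitotic genes are above 0 and most fat oxidation genes below 0 on both axes, while sterol genes are high on x with a median of -0.06 on y.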

How the data were processed

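Liver RNA was hybridised to 8 one-colour Agilent 4x44K arrays, of which the 4 wild-type arrays are compared here. The deposited intensity columns are scanner output that was not scaled between arrays. Per the file headers they were written by Feature Extraction 10.7.1.1, although 10.5.1 stands in the submitters' processing notes. Used were the processed signal, which that program corrects for background and spatial trend, and the mean and background signals. From them log2 processed signal minus the array's 75th percentile over non-control spots was computed. Spots flagged as outliers were dropped and repeat spots averaged, and a gene with several probes took its brightest one. Each array held 45018 spots for 41174 probes, and between 54.7% and 64.1% of spots on the wild-type arrays were well above background. The number of arrays limits the precision.

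Probes were named through a RefSeq table of GRCm38.p6, with 23079 matches on the accession, 6582 on the symbol and 3074 on an older name. The array's own name was kept for 8439. Probe positions are on mm7, as the files give them. Genes were named in the text when they were among the 5 largest differences of a list, the 15 largest on either side, the 10 largest bounds on either side or a set of fixed genes, and a few others were chosen after their values were seen. Members and lists were chosen with earlier results of these data known, and the patterns of 2 family lists were corrected after the files were read. A gene was counted at 2-fold, with 1.5-fold and 3-fold, other scalings, filters, probe rules and single arrays left out as alternatives. R 4.3.3 and limma 3.58.1 were used. The limma fit was tested on simulated data. Some genes are not reported here.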

Additional observations from a re-analysis of the deposited data

Results flagged for a closer look

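Over all genes, 20 of those higher in wild type were 2-fold lower in knockout, and 8 of those lower in wild type were 2-fold higher in knockout. The 6 named genes among them are given here. The difference between genotypes was not tested, since each group is 1 RNA sample. Hsd3b5, a male-specific steroid reductase, differed by 1.82 log2 units in wild type and -1.19 in knockout. Krt23, a type I keratin, differed by -1.69 and 1.1.

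The other 4 genes had a wild-type group that was not well above background, so their measured wild-type difference is no size of change and a bound is given. No bound or normexp value was made for the knockout arrays, and detection there was not required. Their knockout differences may therefore come from dim signal and are no sizes of change either. Hcrtr2, an orexin receptor, had a measured difference of -3.85 in wild type, which is at least 6.78-fold lower with a normexp fold of 2.75, and 1.43 in knockout. Padi4, a peptidylarginine deiminase, had 4.29 in wild type, at least 7.84-fold higher with a normexp fold of 3.16, and -1.55 in knockout. Pip had 3.79 in wild type, at least 4.37-fold higher with a normexp fold of 2.64, and -1.63 in knockout, but its wild-type ENU arrays disagreed at 0.02 and -4.08. Cox8c had 3.64 in wild type, at least 2.53-fold higher, and -1.31 in knockout. Its normexp fold in wild type was 1.71, so it no longer reached 2-fold there, and its ENU arrays disagreed as well.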

How the results depend on the processing

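With 1 RNA sample per group no spread between samples can be given, slide and ENU cannot be told apart, and dim genes depend on the background correction. In place of 1133 higher and 853 lower genes, normexp gave 422 and 487, so that 46.4% of the 2-fold genes were higher in place of 57.0%, and limma then called 3 genes in place of 0. Detection on all 4 wild-type arrays left 722 higher genes, and no filter gave 1758 lower ones, with 47.8% higher. A 1.5-fold limit gave 2545 and 2292 and a 3-fold limit 388 and 275. Leaving out 1 array gave 1135 to 1196 higher and 863 to 890 lower genes. Median centring and quantile normalization kept both counts within 1.5 times. Of 253 named genes at 2-fold, normexp kept 187 the same way, took 65 under 2-fold and reversed Ly6f, from 1.21 to -0.023. The other scalings, the average over probes and the left-out arrays took at most 9 under 2-fold and reversed 0, and detection on all 4 arrays left 187 to compare. No paired analysis was possible because the arrays of a group were counted as 1 sample, so the letters a and b pair no samples.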
